A study of Mus musculus with 12 samples.

Results

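The neurons of the cerebral cortex are laid down in layers, and each layer is marked by its own transcription factors, receptors and secreted proteins. The 35 genes described here are such layer and projection neuron genes, chosen by symbol from the RNA-Seq counts of mouse somatosensory cortex at postnatal day 7. All 35 were found among the 24452 gene symbols of the counts files, and all 35 were among the 14739 genes tested. They comprise 10 upper-layer genes, 8 layer 5 genes, 3 layer 6 genes, 4 genes of the subplate or layer 6b, and 10 genes that mark projection neurons more broadly or have other roles. The 15 genes of layer 5, layer 6 and the subplate are called deep-layer genes.

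The 12 libraries came from male C57BL/6 mice and formed 4 groups of 3, namely WT saline, WT ethanol, KO saline and KO ethanol. The KO mice carried the Trp53 tm1Tyj allele on both copies, and WT and KO mice were offspring of heterozygous parents. Ethanol or saline was injected into the abdomen on postnatal day 7, and the brains were taken 8 h after the second injection. The allele was disrupted in every cell of the KO mice, not in neurons alone, and every mouse, saline controls included, had received injections. The comparisons ask how ethanol changes cortical transcripts in each genotype and whether p53, the transcription factor that Trp53 encodes, alters that change.

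Upper-layer neurons mostly connect cortical areas with one another, while layer 5 neurons project to the brainstem, spinal cord and striatum and layer 6 neurons project to the thalamus. CUX1 and CUX2 are homeodomain factors of upper-layer neurons. FEZF2 and BCL11B direct the identity of layer 5 neurons that leave the cortex, and TBR1 directs that of layer 6 neurons. The subplate lies beneath layer 6, is among the first-born neuron populations of the cortex and receives early thalamic axons.

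The total estimated count was between 719735 and 17066392 per library. WT saline replicate 1 and KO ethanol replicate 1, the 2 libraries whose names open with L, had the lowest totals, at 1953154 and 719735. The TMM factors were between 0.564 in WT saline replicate 2 and 1.23 in KO ethanol replicate 2. Trp53 was counted at 3.67 to 26.2 CPM (the count scaled to a common library size with TMM factors, here and throughout) in WT and at 11.1 to 28.7 CPM in KO libraries. The difference between KO saline and WT saline was smaller than its SE (log2 fold change 0.22 ± 0.60, SE, edgeR adjusted p = 0.86), which does not show equal levels. The paper reports that p53 transcript levels were higher in its KO mice, with more reads over the last exons. The counts are totals over whole transcripts, including parts outside the disrupted stretch, so they are no check of the genotype labels.

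One library stood apart in its tissue markers. The library labelled WT ethanol replicate 1 had the highest level of each of 5 thalamus markers, and their summed level there was 1268 CPM against 43.5 to 193 CPM in the other 11 libraries. Tcf7l2, a factor of thalamic neurons, was at 471 CPM there and at no more than 29.2 CPM elsewhere, and Gbx2 was at 71.7 CPM there and at no more than 1.05 CPM elsewhere. Of 6 cortex markers, 4 were lowest in the same library, and the summed level of the 6 was 884 CPM there and 1023 to 1715 CPM in the others. Camk2a, at 573 CPM against 136 to 679 CPM elsewhere, and Slc17a7, at 188 CPM against 182 to 905 CPM, lay within the range of the other libraries. Its 5 choroid plexus markers were the highest of all libraries and summed to 5022 CPM, against 2255 CPM in KO saline replicate 1, 2214 CPM in KO ethanol replicate 3 and 0 to 408 CPM in the other 9. In the hippocampus list, 3 of 4 markers were highest in WT ethanol replicate 1 too. Of the 35 genes, 12 had their lowest level in this library and 5 their highest. The 7 striatum markers were all highest in WT ethanol replicate 2, where they summed to 1123 CPM, and were next highest in WT ethanol replicate 3 at 535 CPM and KO ethanol replicate 3 at 488 CPM. The part that these markers' tissues have in the results below was not tested, and calls that rest on WT ethanol replicate 1 are given with and without it.

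**Figure D1:**
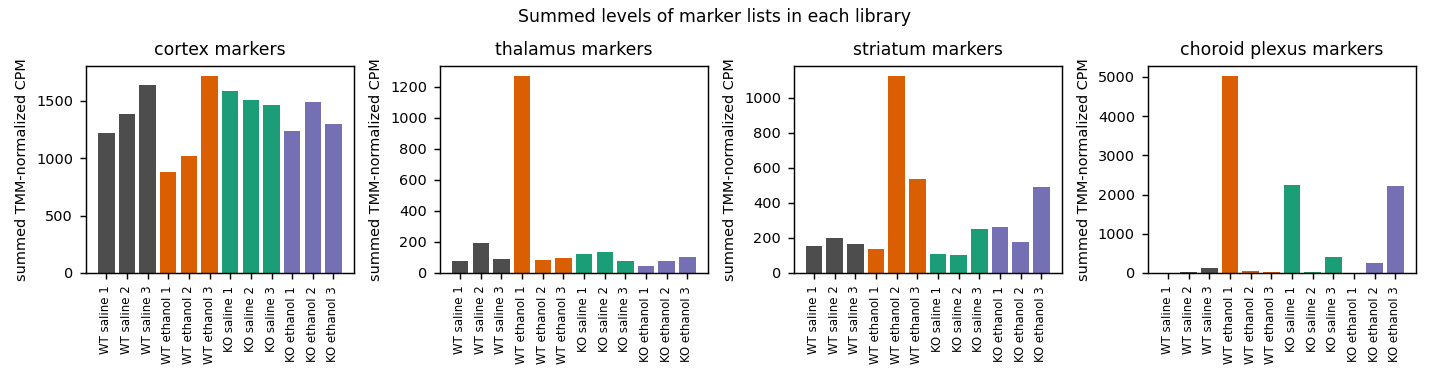
Summed TMM-normalized CPM (y axis, linear, from 0) of the cortex, thalamus, striatum and choroid plexus marker lists in each of the 12 libraries (x axis), with colour showing the group. The thalamus and choroid plexus bars of WT ethanol replicate 1 reach 1268 and 5022 CPM, and the striatum bar of WT ethanol replicate 2 reaches 1123 CPM.

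Levels of different genes were compared on the deposited RPKM scale, which divides by transcript length. Among the layer 5 genes the highest was Pcp4, which encodes a small calmodulin-binding protein, with a mean over the 12 libraries of 491 RPKM and a range of 136 to 1159. Crym, which encodes the thyroid hormone-binding protein mu-crystallin, followed at 109 RPKM. Ldb2 was at 32.2, Fezf2 at 20.7, Etv1 at 10.5, Bcl11b at 6.49, Crim1 at 5.03 and Otx1 at 3.08 RPKM. Ldb2 encodes a cofactor of LIM-domain factors, Etv1 an ETS factor, Crim1 a membrane protein that binds BMPs, and Otx1 a homeodomain factor of layer 5 and 6 neurons. The lowest Pcp4 value exceeded the highest value of Fezf2 (48.2 RPKM) and of Bcl11b (11.3 RPKM), so those ranges did not overlap.

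The upper-layer genes were led by Cux1 at 21.5 RPKM (range 12.7 to 42.9), next to the LIM-homeodomain gene Lhx2 at 20.9 and the POU-domain gene Pou3f3 at 18.0. The ranges of these 3 overlapped, so their order is not beyond their spread. Pou3f2, another POU-domain gene, was at 7.01, the adhesion gene Mdga1 at 6.68, the nuclear receptor gene Rorb, a marker of layer 4, at 5.29 and Cux2 at 4.29 RPKM. Rspo1, which encodes a WNT-signal enhancer, was at 1.37 RPKM, the sodium channel subunit gene Scnn1a at 0.632 and Inhba, which encodes an activin subunit, at 0.551. The 3 lowest upper-layer genes were each listed at 0 counts in 1 or 2 of the libraries.

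In layer 6, the corepressor gene Tle4 was at 17.4 RPKM, Tbr1 at 16.4 and the neurotensin receptor gene Ntsr1 at 8.20. In the subplate list, Ctgf, which encodes a secreted matrix protein, was at 11.9 RPKM, the complexin gene Cplx3 at 10.6, the nuclear receptor gene Nr4a2 at 4.05 and the neurexophilin gene Nxph4 at 3.21. The broad list was led by Id2, which encodes an inhibitor of basic helix-loop-helix factors, at 221 RPKM (range 93.3 to 360). The LIM-only genes Lmo4 and Lmo3 were at 154 and 46.3 RPKM. Of the proneural and neuronal basic helix-loop-helix genes, Neurod6 was at 126, Bhlhe22 at 27.6, Neurod2 at 14.7 and Neurod1 at 6.34 RPKM. Pou3f1 was at 9.70, Tle1 at 8.63 and Eomes, a T-box gene of cortical intermediate progenitors, at 1.38 RPKM.

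**Figure D2:**
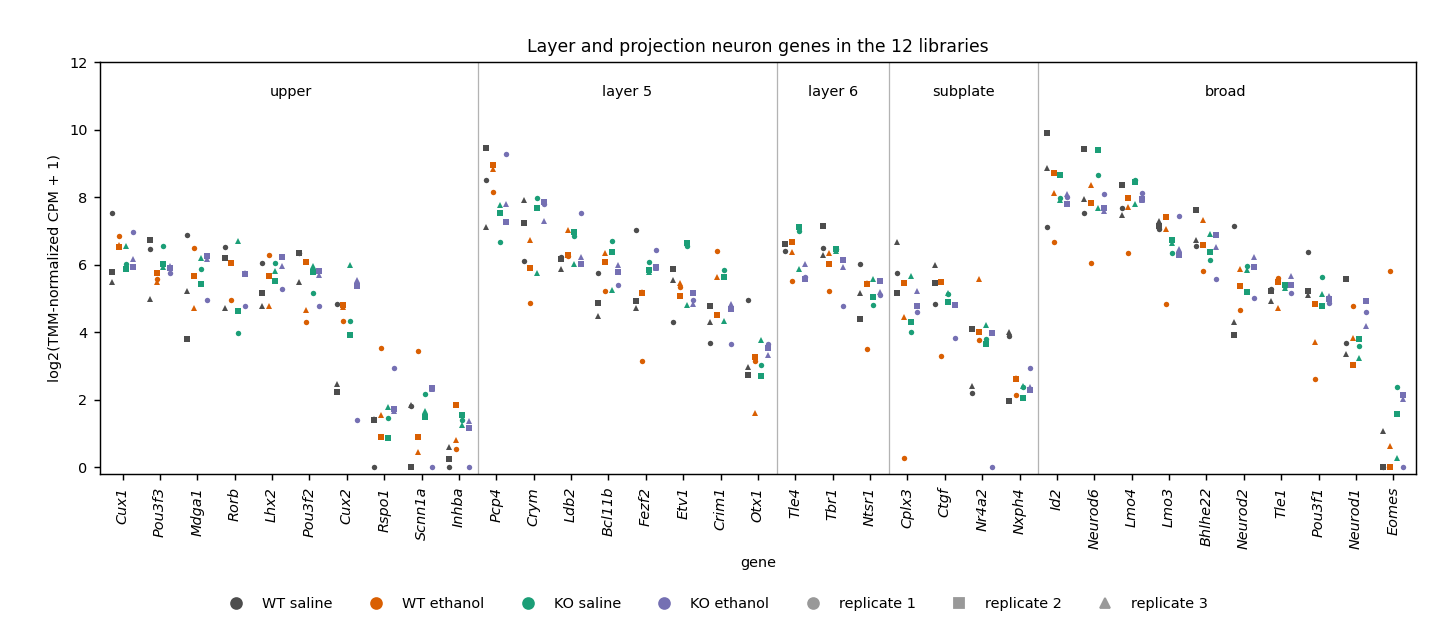
Level of each of the 35 genes (x axis, ordered by mean CPM within each layer list) as log2(TMM-normalized CPM + 1) (y axis), 1 point per library, with colour for the group and marker shape for the replicate. Pcp4 and Id2 lie at the top of their lists, Inhba, Scnn1a, Rspo1 and Eomes at the bottom, and the WT ethanol replicate 1 point (orange circle) is the lowest of the 12 libraries for Cplx3, Ctgf, Fezf2, Pou3f1 and Lmo3.

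The libraries of a group differed widely in these genes. The median SD of log2(CPM + 1) among the 3 libraries, taken over the 35 genes, was 0.82 and 0.87 in WT mice after saline and ethanol, and 0.41 and 0.53 in KO mice. In WT saline the widest gene was Neurod2 (SD 1.76), at 142, 14.3 and 19.0 CPM in replicates 1 to 3, and the tightest was Lmo3 (SD 0.12). In WT ethanol the widest was Eomes (SD 3.20). In KO saline the widest was Rorb (SD 1.44), at 14.7, 23.7 and 105 CPM, and the tightest was Tle1 (SD 0.04). In KO ethanol the widest was Cux2 (SD 2.34), at 1.67, 40.7 and 46.3 CPM, of which the first is an estimated count of 1. Cux1 was at 184, 54.4 and 43.8 CPM in WT saline and Id2 at 138, 955 and 472 CPM, so replicate 1 was the highest library of the group for one and the lowest for the other.

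KO saline replicates 1 and 2 were close to each other and apart from replicate 3 in some of the deep-layer genes. Bcl11b was at 104 and 82.5 CPM in them and at 37.0 in replicate 3. Etv1 was at 94.0, 98.7 and 27.2 CPM, Crym at 250, 205 and 53.5 CPM, and Tle4 at 128, 139 and 58.1 CPM. The upper-layer genes Cux2 and Rorb went the other way, with Cux2 at 19.4, 14.2 and 62.7 CPM. So did other deep-layer genes, with Cplx3 at 15.3, 18.8 and 49.6 CPM, Otx1 at 7.19, 5.56 and 12.7 CPM and Ntsr1 at 27.4, 32.0 and 46.6 CPM. The upper-layer gene Pou3f3 was lowest in replicate 3, at 94.0, 63.6 and 59.7 CPM, so the difference did not divide by layer. In Bcl11b, Etv1, Crym and Tle4 replicates 1 and 2 lay above replicate 3 by more than they differed from each other.

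The first comparison was WT ethanol with WT saline, which asks what ethanol changed where p53 was intact. A gene was called at a Benjamini-Hochberg adjusted p under 0.30 in edgeR, the level the study used. Of the 35 genes, 7 were called, which is 20.0% of them, against 22.5% of the 14739 genes tested. The 4 genes called higher (11.4%, against 12.1% of all genes) were Eomes, Crim1, Nr4a2 and Inhba, and the 3 called lower (8.57%, against 10.4%) were Pou3f1, Nxph4 and Crym. The smallest adjusted p was 0.191, and 4 of the 35 had an unadjusted p under 0.05, against 18.3% of all genes. DESeq2 called 6 higher and 5 lower (31.4%, against 21% of the 19364 genes with any count). Those 19364 include any gene that DESeq2 left without an adjusted p and that could not be called, so the shares are not directly comparable. Without TMM factors 7 were called higher and 1 lower (22.9%, against 27.5% of all genes), while the median of all genes moved to 0.49. The median log2 fold change was -0.31 over the 35 genes and 0.06 over all genes, and -0.13 and -0.04 without WT ethanol replicate 1.

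Pou3f1, which encodes a POU-domain factor of upper-layer and some layer 5 neurons, was at 82.8, 36.4 and 33.4 CPM in WT saline and at 5.15, 27.6 and 12.1 CPM in WT ethanol. The groups did not overlap, and the lowest value was that of WT ethanol replicate 1. The log2 fold change was -1.77 ± 0.54 (SE, n = 3 and 3 libraries, edgeR adjusted p = 0.191). Without WT ethanol replicate 1 it was -1.35 ± 0.51, with an edgeR adjusted p of 0.519.

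Eomes was at 0, 0 and 1.11 CPM in WT saline and at 55.9, 0 and 0.556 CPM in WT ethanol. Nearly all of its count in the ethanol group came from 1 library, WT ethanol replicate 1, with an estimated count of 988 against 0 to 48 in every other library. The log2 fold change was 5.06 ± 1.80 (edgeR adjusted p = 0.208) and turned to -0.76 ± 1.46 (adjusted p = 0.861) without that library. Crim1 was at 11.8, 26.5 and 18.8 CPM in WT saline and at 83.9, 22.0 and 48.8 CPM in WT ethanol, so the groups overlapped at 1 library. Its log2 fold change of 1.43 ± 0.53 (edgeR adjusted p = 0.215) fell to 0.86 ± 0.54 (adjusted p = 0.556) without WT ethanol replicate 1 and to 0.54 (adjusted p = 0.563) with length and GC trends removed.

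Nr4a2 was at 3.599, 16.4 and 4.38 CPM in WT saline and at 12.8, 15.3 and 47.2 CPM in WT ethanol, with a log2 fold change of 1.60 ± 0.75 (edgeR adjusted p = 0.273). Inhba was at 0, 0.184 and 0.520 CPM and at 0.453, 2.63 and 0.741 CPM, which is an estimated count of 0 to 7 in a WT saline library and 8 to 15 in a WT ethanol library. Its log2 fold change was 1.82 ± 0.90 (edgeR adjusted p = 0.292). Both genes overlapped between the groups. Their direction held without WT ethanol replicate 1, at 1.89 ± 0.79 for Nr4a2 and 2.22 ± 0.89 for Inhba, both with an edgeR adjusted p of 0.519.

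Nxph4 was at 13.9, 2.94 and 15.3 CPM in WT saline and at 3.45, 5.09 and 5.28 CPM in WT ethanol, and its log2 fold change was -1.21 ± 0.56 (edgeR adjusted p = 0.266). Crym was at 67.9, 150 and 242 CPM in WT saline and at 28.3, 58.5 and 105 CPM in WT ethanol, with a log2 fold change of -1.26 ± 0.60 (edgeR adjusted p = 0.277). In both the lowest ethanol library was replicate 1, and without it the log2 fold changes were -1.05 ± 0.63 and -0.93 ± 0.64 (adjusted p = 0.546 and 0.588). Fezf2, at an adjusted p of 0.3005, and Rspo1, at 0.3011, lay just outside the call.

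By layer, 1 of 10 upper-layer genes was called higher and none lower, 1 of 8 layer 5 genes was called in each direction, none of the 3 layer 6 genes was called, and 1 of 4 subplate genes was called in each direction. The median log2 fold change was 0.20 over the upper-layer genes, -0.02 over layer 5, -0.31 over layer 6 and -0.85 over the subplate genes. In WT ethanol replicate 1 the mean log2(CPM + 1) of the subplate genes was 2.38, against 4.40 and 4.55 in replicates 2 and 3. That of the layer 6 genes was 4.75, against 6.05 and 6.07. Ldb2 was the other gene besides Pou3f1 whose groups did not overlap, with all WT ethanol libraries above all WT saline libraries (log2 fold change 0.49, adjusted p = 0.541). Among all genes tested, 19.5% did not overlap between these groups.

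Without WT ethanol replicate 1, none of the 35 genes was called, and 0.476% of the 14908 genes then tested were. Without WT saline replicate 2, 1 of the 35 was called (2.86%, against 1.3% of all genes). Without WT saline replicate 1 there were 10 called higher and 7 lower (48.6%, against 48.7%), and without KO ethanol replicate 1 there were 6 of each (34.3%, against 31.6%). In bulk tissue, fewer cells of a type and less RNA per cell cannot be told apart, and in this comparison neither can be told apart from a different piece of tissue in 1 library.

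KO saline was compared with WT saline to ask what the loss of p53 changed without ethanol. Of the 35 genes, 5 were called (14.3%), against 25.8% of all genes. Inhba, Bcl11b and Crim1 were called higher (8.57%, against 12.4% of all genes) and Nxph4 and Pcp4 lower (5.71%, against 13.4%). An unadjusted p under 0.05 was found for 3 genes, against 19.6% of all genes, and the smallest adjusted p was 0.193. DESeq2 called 4 higher and 3 lower (20%, against 22.7% of the genes with any count, including any without an adjusted p). Without TMM factors, where the median of all genes moved to 0.49, edgeR called 7 higher and 0 lower (20%, against 27.5%). This comparison uses the same WT saline libraries as the one above, so their values enter both.

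Inhba was at 1.67, 1.93 and 1.40 CPM in KO saline, against 0, 0.184 and 0.520 CPM in WT saline, with an estimated count of 19 to 33 per library against 0 to 7. The listed values did not overlap, but the 0 of WT saline replicate 1 allows a level of up to 1.54 CPM (3 counts, counting error only), which is above the lowest KO saline library. The log2 fold change was 2.30 ± 0.88 (edgeR adjusted p = 0.193), at levels among the lowest of the 35 genes. Nxph4 was at 4.21, 3.16 and 4.35 CPM against 13.9, 2.94 and 15.3 CPM, and WT saline replicate 2 lay below all 3 KO saline libraries. Its log2 fold change was -1.45 ± 0.56 (edgeR adjusted p = 0.198).

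Bcl11b, which encodes the zinc finger factor CTIP2 of layer 5 neurons and of striatal projection neurons, was at 104, 82.5 and 37.0 CPM in KO saline and at 52.96, 28.3 and 21.3 CPM in WT saline. The log2 fold change was 1.14 ± 0.46 (edgeR adjusted p = 0.206), and KO saline replicate 3 lay within the WT range. With length and GC trends removed it was 0.48 (adjusted p = 0.698). The summed level of the striatum markers was 108, 104 and 249 CPM in KO saline replicates 1 to 3. It was 154, 198 and 166 CPM in WT saline replicates 1 to 3, and the markers' part in the Bcl11b value was not tested. Crim1 was at 56.3, 48.6 and 19.4 CPM against 11.8, 26.5 and 18.8 CPM, with a log2 fold change of 1.11 ± 0.53 (edgeR adjusted p = 0.263). Pcp4 was at 102, 187 and 218 CPM against 367, 699 and 138 CPM, with a log2 fold change of -1.25 ± 0.61 (edgeR adjusted p = 0.268). With length and GC trends removed the values were 0.25 for Crim1 (adjusted p = 0.823) and -0.25 for Pcp4 (adjusted p = 0.846), and without WT saline replicate 2 that of Pcp4 was -0.58 (adjusted p = 0.705).

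Single libraries decided these calls. Leaving out WT saline replicate 2, KO saline replicate 1 or KO saline replicate 2 left none of the 35 genes called, and 0.246%, 0.0599% and 0.0599% of all genes. Without WT saline replicate 1 there were 7 called higher and 5 lower (34.3%, against 50.4% of all genes), and without WT ethanol replicate 1 there were 3 higher and 4 lower (20.0%, against 25.8% of all genes). Of the layer 5 genes 2 were called higher and 1 lower, and no layer 6 or broad gene was called. The median log2 fold change was 0.36 over layer 5, 0.21 over the upper-layer and -0.82 over the subplate genes. Besides Inhba, the listed values did not overlap for Tle1 (0.21, adjusted p = 0.749) and Lmo3 (-0.60, adjusted p = 0.524), against 22.9% of all genes.

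**Figure D3:**
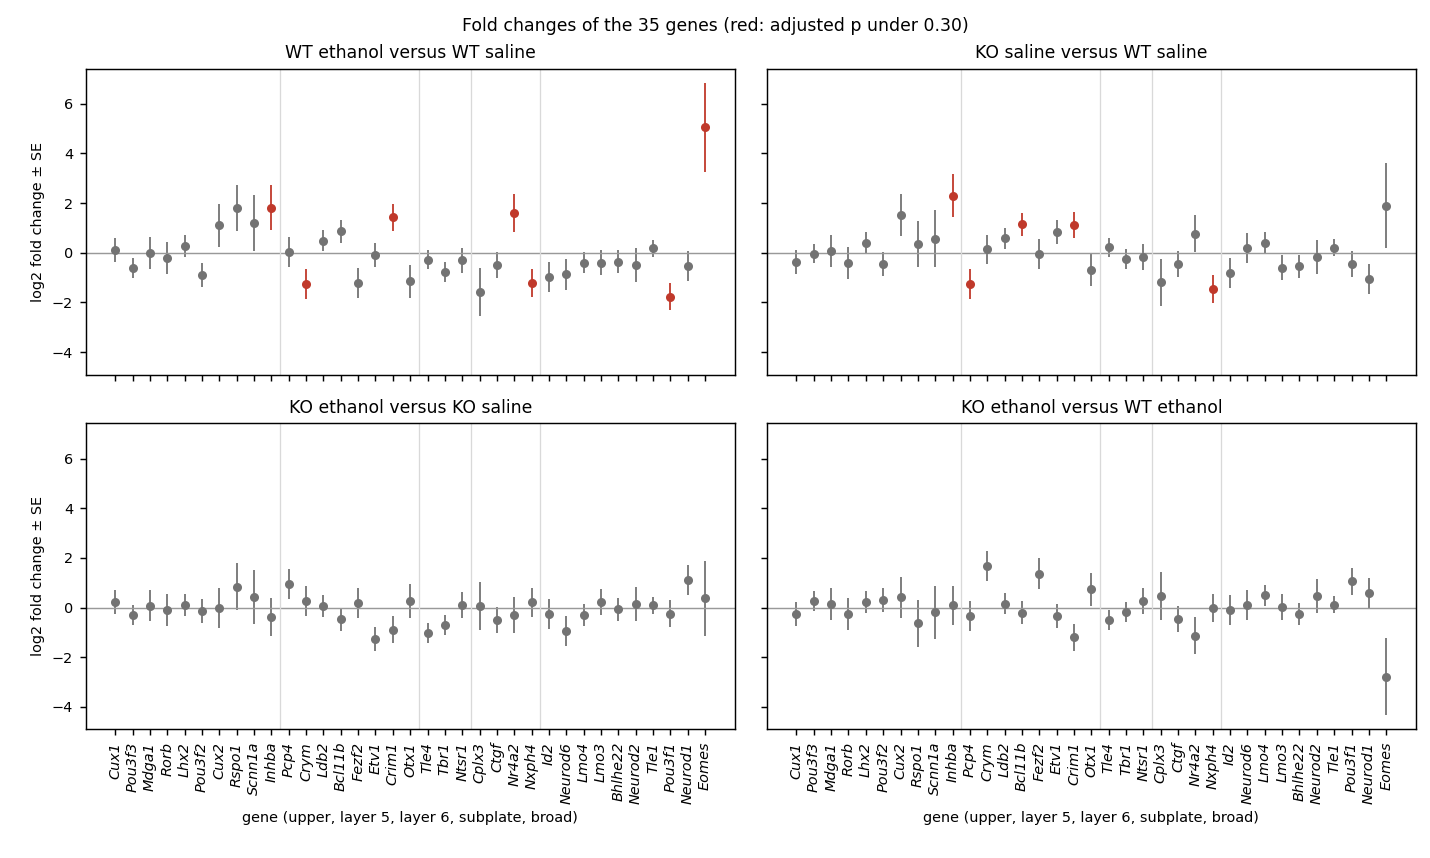
Log2 fold change ± SE (y axis) of the 35 genes (x axis, in layer order) in the 4 comparisons between groups, from edgeR, with genes at an adjusted p under 0.30 in red. There are 7 red genes in WT ethanol versus WT saline, 5 in KO saline versus WT saline and 0 in the 2 comparisons that include KO ethanol.

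KO ethanol was compared with KO saline for the effect of ethanol without p53. No gene was called among the 35, and 0% of all genes were. An unadjusted p under 0.05 was found for 2 of the 35 (5.71%), both lower, against 3.15% of all genes. DESeq2 called 0 of the 35 and 3 of the 19364 genes with any count (0.0155%). Etv1 was at 94.0, 98.7 and 27.2 CPM in KO saline and at 30.1, 34.7 and 27.5 CPM in KO ethanol, with a log2 fold change of -1.25 ± 0.49 (edgeR adjusted p = 0.999). Tle4 was at 128, 139 and 58.1 CPM and at 48.5, 47.0 and 64.8 CPM, with a log2 fold change of -1.01 ± 0.40 and the same adjusted p.

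In both genes KO saline replicates 1 and 2 were high. KO saline replicate 3 lay among the ethanol libraries for Tle4 and just below the lowest of them for Etv1 (27.2 against 27.5 CPM). Neurod1, which encodes a neuronal differentiation factor, was higher in each KO ethanol library (23.4, 29.5 and 17.4 CPM) than in each KO saline library (11.1, 13.1 and 8.56 CPM), with a log2 fold change of 1.10 ± 0.60 (edgeR adjusted p = 0.999). Tbr1 and Ctgf were lower in each KO ethanol library, with log2 fold changes of -0.69 and -0.49 and the same adjusted p. Among all genes, 10.8% did not overlap between these groups. KO ethanol replicate 1 had 719735 counts in all, so a count of 0 there, as for Nr4a2, allows a level of up to 5.01 CPM (3 counts, counting error only).

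In KO ethanol against WT ethanol, which compares the genotypes under ethanol, 0 of the 35 genes and 0% of all genes were called by edgeR. DESeq2 called 0 of the 35 and 0.0155% of the genes with any count. The unadjusted p was under 0.05 for 3 genes (8.57%), against 3.24% of all genes. Crym was at 222, 234 and 155 CPM in KO ethanol and at 28.3, 58.5 and 105 CPM in WT ethanol, a log2 fold change of 1.67 ± 0.61 (edgeR adjusted p = 0.982). Fezf2, at 85.3, 60.5 and 58.7 CPM against 7.87, 35.3 and 35.6 CPM, had 1.37 ± 0.62, and Crim1, at 11.7, 25.0 and 27.5 CPM against 83.9, 22.0 and 48.8 CPM, had -1.20 ± 0.53, with the same adjusted p.

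Crym, Fezf2, Pou3f1 and Otx1 were higher in each KO ethanol library than in each WT ethanol library. For Otx1 the gap was narrow, from 8.61 CPM in WT ethanol replicate 2 to 9.01 CPM in KO ethanol replicate 3. Its level in KO ethanol replicate 1 rested on an estimated count of 7. Among all genes, 12.7% did not overlap. Without WT ethanol replicate 1 the log2 fold changes were 1.33 ± 0.65 for Crym, 0.95 ± 0.59 for Fezf2 and -0.64 ± 0.54 for Crim1, and no unadjusted p of these 3 was under 0.05.

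The Genotype x Treatment interaction tests whether the response to ethanol differed between KO and WT mice. Crim1 was the one gene of the 35 that was called (2.86%), against 11.1% of all genes. It was called lower, that is, the ethanol response was lower in KO than in WT mice, as for 5.43% of all genes. No gene of the 35 was called higher, against 5.64%, and 1 gene had an unadjusted p under 0.05, against 15.2%. The interaction of Crim1 was -2.31 ± 0.75 on the log2 scale (edgeR adjusted p = 0.250). It combines the log2 fold change of 1.43 in WT mice with a log2 fold change of -0.89 in KO mice, where the adjusted p was 0.999. Without WT ethanol replicate 1 it was -1.72 ± 0.73, none of the 35 genes was called, and 0% of all genes were. Crim1 was also not called without WT saline replicate 2, WT ethanol replicate 2, KO saline replicate 1 or 2, or KO ethanol replicate 1. Bcl11b (-1.34 ± 0.65, adjusted p = 0.341) and Pou3f1 (1.53 ± 0.75, adjusted p = 0.354) had the next smallest p in edgeR, and without WT ethanol replicate 1 they had -1.58 ± 0.64 and 1.13 ± 0.67 (adjusted p = 0.460 and 0.537).

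The balance of upper and deep layers was described as the mean log2(CPM + 1) of the 10 upper-layer genes minus that of the 15 deep-layer genes in each library. In WT saline it was -0.84, -1.60 and -1.64, and the WT ethanol libraries had 0.21, -0.98 and -1.56. The KO libraries had -1.25, -1.42 and -0.47 after saline and -1.35, -0.64 and -0.65 after ethanol. All 4 groups overlapped. WT ethanol replicate 1 was the only library in which the upper-layer mean exceeded the deep-layer mean, at 4.64 against 4.43. For WT mice the group means were -1.36 ± 0.45 after saline and -0.78 ± 0.90 after ethanol, and for KO mice -1.05 ± 0.51 and -0.88 ± 0.41 (SD, n = 3 libraries each).

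The difference between WT ethanol and WT saline was 0.58, smaller than the SD within WT ethanol, and was 0.09 without WT ethanol replicate 1. It was 0.31 for KO saline against WT saline and 0.17 for KO ethanol against KO saline. KO ethanol against WT ethanol gave -0.11, which became 0.39 without WT ethanol replicate 1. Deep-layer means were tight in WT saline (5.41 ± 0.07) and wide in WT ethanol (5.13 ± 0.61), while upper-layer means were 4.05 ± 0.52 and 4.35 ± 0.33. Over WT saline replicates 1 to 3, layer 5 means fell (5.83, 5.76 and 5.37) while subplate means rose (4.18, 4.19 and 4.78). Among the WT ethanol deep-layer means, replicate 1 was low at 4.43, against 5.40 and 5.55 in replicates 2 and 3. Subplate means were 4.38 ± 0.35 (saline) and 3.78 ± 1.21 (ethanol) in WT and 3.98 ± 0.34 and 3.64 ± 0.69 in KO mice. Layer 6 means were 6.13 ± 0.16 and 5.62 ± 0.76 in WT and 6.09 ± 0.13 and 5.55 ± 0.32 in KO mice. WT ethanol replicate 1 was the lowest library in both, at 2.38 for the subplate and 4.75 for layer 6.

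**Figure D4:**
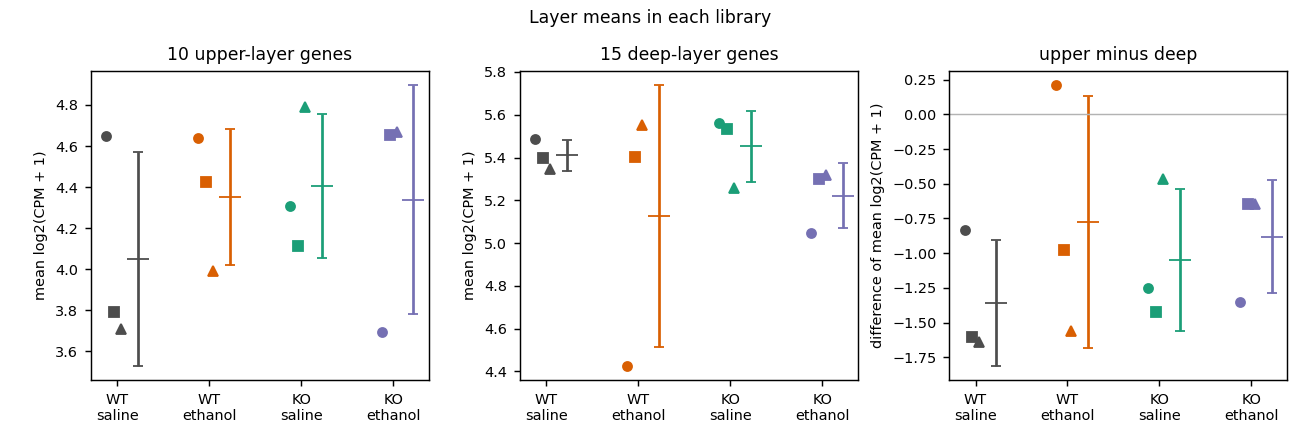
Mean log2(CPM + 1) of the 10 upper-layer genes (left), of the 15 deep-layer genes (middle) and their difference (right), with 1 point per library (marker shape for the replicate) and the group mean ± SD beside it, for the 4 groups on the x axis. The y axes do not start at 0, the groups overlap in the right panel, and WT ethanol replicate 1 (orange circle) lies above 0 at 0.21.

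Some of these genes are counted through several RefSeq transcripts, 23 of the 35 through 1 and 12 through 2 to 7. Bcl11b has 3, which share their first and last positions at chr12:107910403-108003415 (mm10). The one of 2522 bases took 89.6%, 89.6% and 72.8% of the gene's count in the WT saline libraries, and 25.3%, 32.7% and 29.4% in the KO saline libraries. In WT ethanol it took 15.9%, 37.9% and 52.7%, and in KO ethanol 89.6%, 21.8% and 29.2%. The division was the same to within 0.01 percentage points in WT saline replicates 1 and 2 and KO ethanol replicate 1, although their totals differed (estimated Bcl11b counts of 103, 154 and 25). Whether any read told the transcripts apart in these libraries was not tested. The transcript fold changes below rest on that division wherever these libraries enter. The transcripts of 8111 and 2888 bases were each called higher in KO saline than in WT saline, with log2 fold changes of 3.44 ± 0.78 and 3.41 ± 0.64 (edgeR on transcripts, adjusted p = 0.111 and 0.0841), against 1.14 for the gene as a whole. The same transcripts were called higher in WT ethanol than in WT saline, with 3.27 ± 0.77 and 2.71 ± 0.63 (adjusted p = 0.102 and 0.0997), and lower in the interaction, with -3.35 ± 1.01 and -3.75 ± 0.85 (adjusted p = 0.221 and 0.188). Of all 21715 transcripts tested, 23.8%, 21.5% and 12.1% were called in these 3 contrasts, and the first and second share the WT saline libraries.

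Cux2 has 2 transcripts that start at separate sites. The shorter, which starts at the downstream site, took 14.9%, 98.8% and 71.6% of the count in the WT saline libraries and 14.9%, 14.9% and 23.1% after ethanol. Its shares in KO mice were 25.1%, 24.2% and 30.6% after saline and 14.9%, 27.9% and 14.9% after ethanol. WT saline replicates 2 and 3 were alone in giving more to the shorter transcript than to the longer. They also had the lowest Cux2 levels of the libraries with an estimated count above 1, at 3.67 and 4.53 CPM, or estimated counts of 20 and 61. The same division, to within 0.01 percentage points, was found in 5 libraries.

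**Figure D5:**
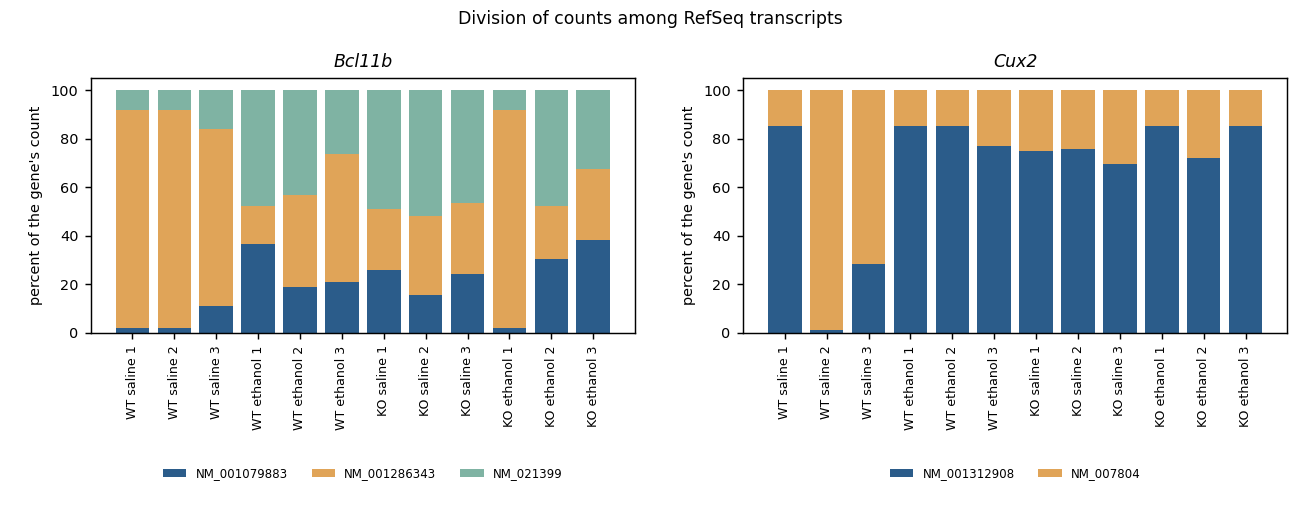
Percent of the count of Bcl11b (left) and Cux2 (right) given to each RefSeq transcript (y axis, 0 to 100) in each of the 12 libraries (x axis), with colours for the transcripts. The Bcl11b transcript of 2522 bases (ochre) takes 89.6% in WT saline replicates 1 and 2 and KO ethanol replicate 1, and the shorter Cux2 transcript (ochre) takes 98.8% in WT saline replicate 2.

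The windows at the 2 starts of Cux2 are printed because the counts were divided between them, and that of Mdga1 because it is the one promoter among these genes with a match to the p53 half-site. Each runs from 250 bases before to 50 bases after the RefSeq start (build GRCm38.p6), read 5′ to 3′ on the minus strand. Of the 35 genes, 27 had 34 such windows in the table. Both strands were searched for the p53 half-site, for the E-box CAGATG that NEUROD factors bind, for the POU octamer ATGCAAAT and for the T-box site TCACACCT, and capitals mark a match. The Cux2 start of the longer transcript lies at chr5:122049802-122050101 and that of the shorter at chr5:122047776-122048075, and Mdga1 at chr17:29887833-29888132.
Cux2, longer transcript: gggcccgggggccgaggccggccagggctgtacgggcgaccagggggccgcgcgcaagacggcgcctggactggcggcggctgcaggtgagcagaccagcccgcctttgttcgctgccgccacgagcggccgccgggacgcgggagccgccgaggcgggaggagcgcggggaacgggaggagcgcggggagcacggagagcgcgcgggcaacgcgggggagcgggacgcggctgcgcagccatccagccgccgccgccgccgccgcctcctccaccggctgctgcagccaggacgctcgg
Cux2, shorter transcript: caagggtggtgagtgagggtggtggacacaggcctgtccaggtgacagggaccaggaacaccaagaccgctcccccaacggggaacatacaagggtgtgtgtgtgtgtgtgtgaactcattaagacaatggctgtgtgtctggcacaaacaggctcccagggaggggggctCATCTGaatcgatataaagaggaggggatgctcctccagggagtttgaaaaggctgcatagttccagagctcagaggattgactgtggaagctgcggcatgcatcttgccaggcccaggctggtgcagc
Mdga1: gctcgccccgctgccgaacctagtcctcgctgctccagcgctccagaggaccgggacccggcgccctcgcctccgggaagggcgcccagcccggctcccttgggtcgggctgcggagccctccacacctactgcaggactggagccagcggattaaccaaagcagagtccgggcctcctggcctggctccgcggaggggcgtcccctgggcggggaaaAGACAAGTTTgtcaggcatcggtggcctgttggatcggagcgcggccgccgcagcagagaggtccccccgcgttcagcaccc

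The first Cux2 window held none of the 4 motifs, and 80.3% of its bases were G or C. The second was 56.7% G or C and held 1 match to CAGATG, on the opposite strand. Across the 34 windows, 4 held CAGATG (11.8%, against 17.2% of all 32851 windows), in Cux2, Etv1, Lhx2 and Neurod2. The octamer was in none (1.74% of all windows), the T-box site in 1, of Lmo3 (2.94%, against 1.28%), and the p53 half-site in 1, of Mdga1 (2.94%, against 8.36%). No gene had matches to more than 1 of the 4 motifs. Mdga1, which encodes an adhesion molecule of upper-layer neurons, was at 117, 13.0 and 36.7 CPM in WT saline and at 57.4, 42.6 and 72.1 CPM in KO saline, and the groups overlapped. A match is a description of letters and not of a bound site.

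A further 8 upper-layer and 12 deep-layer genes that are not among the 35 were all tested. In WT ethanol against WT saline, 2 upper-layer genes of these were called higher and 1 lower, and 2 deep-layer genes higher and 1 lower (6 of 20, 30%, against 22.5% of all genes). Without WT ethanol replicate 1, none of the 20 was called. Otof, which encodes a calcium sensor, was at 2.57, 0.367 and 1.41 CPM in WT saline and at 5.15, 11.2 and 8.62 CPM in WT ethanol. The WT saline levels are near the floor, as 3 counts make 1.54 CPM in replicate 1 and 0.551 CPM in replicate 2. Otof was called higher in WT ethanol (2.68 ± 0.96, edgeR adjusted p = 0.208, or 2.93 ± 1.01 and 0.484 without WT ethanol replicate 1). It was also called higher in KO saline against WT saline (3.12 ± 0.96, adjusted p = 0.176). Rprm, a deep-layer gene whose product halts the cell cycle and which p53 is known to induce, was at 227, 169 and 176 CPM in WT saline and at 37.8, 93.8 and 97.9 CPM in WT ethanol. In KO mice it was at 102, 93.3 and 148 CPM after saline and 155, 130 and 142 CPM after ethanol. It was called lower in WT ethanol (-1.32 ± 0.38, edgeR adjusted p = 0.184, or -1.0 ± 0.38 and 0.519 without WT ethanol replicate 1) and in KO saline (-0.74 ± 0.38, adjusted p = 0.290), and every library of both groups lay below every WT saline library.

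In KO saline against WT saline, 2 of the 8 further upper-layer genes were called higher and none lower, and of the 12 deep-layer genes 2 were called higher and 1 lower (5 of 20, 25%, against 25.8% of all genes). Tshz2, a zinc finger gene of deep-layer neurons, was at 122, 117 and 10.7 CPM in KO saline and at 14.4, 18.6 and 4.23 CPM in WT saline (2.77 ± 0.81, edgeR adjusted p = 0.176). KO saline replicates 1 and 2 were again high and replicate 3 was within the WT saline range. No gene of these 20 was called by edgeR in KO ethanol against KO saline or against WT ethanol. There, 2 and 4 of the 20 (10% and 20%) had an unadjusted p under 0.05, against 3.15% and 3.24% of all genes. Without WT ethanol replicate 1, 1 of the 20 (5%) had such a p in KO ethanol against WT ethanol. Of all 14908 genes then tested, 127 higher and 147 lower did. In the interaction 2 of the 20 were called (10%, against 11.1%), Rprm higher (1.63 ± 0.54, edgeR adjusted p = 0.250) and Tshz2 lower (-3.22 ± 1.10, adjusted p = 0.252). Without WT ethanol replicate 1 these were 1.34 ± 0.50 and -2.57 ± 1.11, and neither was called (adjusted p = 0.460 and 0.461).

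The 2 libraries whose names open with L had the fewest counts, and without them many more genes were called. In WT ethanol against WT saline 21 of the 35 were then called (60.0%), against 55.4% of all genes, and in KO saline against WT saline 15 (42.9%), against 56.4%. In the interaction 7 were called (20.0%), against 28.9%. With WT ethanol replicate 1 also left out, an alternative chosen after seeing the data, the counts were 13 (37.1%, against 47.8% of all genes), 18 (51.4%, against 59.2%) and 7 (20.0%, against 23.9%). At an adjusted p under 0.05, that last fit called 3 of the 35 genes in WT ethanol against WT saline, and 1956 of all 14801 genes. In KO saline against WT saline it called 5 of the 35 and 4233 of all genes at that level. In this fit Cux2 rose by 2.63 ± 0.64 on the log2 scale in WT ethanol (edgeR adjusted p = 0.0274) and by 2.93 ± 0.62 in KO saline (adjusted p = 0.0067). Neurod2 rose by 1.53 ± 0.38 (adjusted p = 0.0288) and 1.59 ± 0.36 (adjusted p = 0.0086), and Bcl11b by 1.56 ± 0.44 (adjusted p = 0.0402) and 1.55 ± 0.41 (adjusted p = 0.0174). In that fit WT ethanol consisted of replicates 2 and 3, whose striatum markers summed to 1123 and 535 CPM, against 198 and 166 CPM in WT saline replicates 2 and 3, and their part in the Bcl11b value was not tested.

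In those fits WT saline consisted of replicates 2 and 3, the libraries with Cux2 at 3.67 and 4.53 CPM. WT saline replicate 1, which was left out, had Cux2 at 27.8 CPM, above each WT ethanol library (19.3 to 26.9 CPM), and Neurod2 at 142 CPM, the highest of the 12 libraries. With it, Cux2 had log2 fold changes of 1.10 ± 0.86 and 1.53 ± 0.86 (edgeR adjusted p = 0.492 and 0.334), and Neurod2 had -0.49 ± 0.69 and -0.15 ± 0.69 (adjusted p = 0.720 and 0.922). KO saline libraries 1 to 3 had Cux2 at 19.4, 14.2 and 62.7 CPM, so 2 of them lay below WT saline replicate 1.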

How the data were processed

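Stranded RNA-Seq libraries of P7 somatosensory cortex were analysed, 12 in all. Per the paper's methods and the labels, the authors filtered the reads, aligned them to mm10 with Bowtie2 and quantified RefSeq transcripts in Partek Flow, whose version and settings are not given in the sources used here. The deposited estimated counts, 1 per transcript and library, are not scaled and between 43.2% and 45.5% of nonzero values are whole, so shared reads were divided by the authors' quantification. RPKM, per length and depth, came from the authors' software, and the sorted deposited values are nearly the same in every library. The methods describe laser dissection and hole punches, which could not be assigned to libraries.

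Groups came from the labels, and replicates were numbered within a group in accession order. Counts were summed per gene symbol, rounded and fitted in edgeR 4.0.16 (R 4.3.3) with its default low-count filter, TMM factors and 1 mean per group, with two-sided quasi-likelihood tests and Benjamini-Hochberg adjustment over 14739 genes. The 5 contrasts were the 4 between groups and the interaction. A call was an adjusted p under 0.30. Layer balance got no test. The depth of a library was its total estimated count, and low totals limit low genes. The methods give 3 RNA samples per group, but nothing in the labels ties each library to its own animal, so p-values measure the spread between these libraries, which may be technical.

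The 35 genes, the other layer genes and the marker lists were chosen with earlier results of these data known. All 35 are named. Values per library were given by rule for the 3 with the smallest p in each contrast and the one with the highest RPKM in each list, and for others chosen after their values were seen. Alternatives were DESeq2 1.42.0, limma 3.58.1 on log2 RPKM with a pseudocount of 1 or 0.1, other scalings and count filters, 1 transcript per gene, only the groups compared, the first letter of the library name as covariate, removal of length and GC trends, and libraries left out. The edgeR, DESeq2 and limma fits were tested on simulated counts with known large changes in highly expressed genes and the same spread for every gene. No simulated library stood apart, so that test does not check the calls reported here. Summaries used Python 3.11.15 with pandas 2.3.3. Coordinates are mm10, and promoters are RefSeq windows of GRCm38.p6.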

Additional observations from a re-analysis of the deposited data

Results flagged for a closer look

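The response of Crim1 to ethanol differed between the genotypes by the interaction term (-2.31 ± 0.75 on the log2 scale, edgeR adjusted p = 0.250). Crim1 was higher in 2 of 3 WT ethanol libraries than in every WT saline library. In the KO mice, KO saline replicates 1 and 2 (56.3 and 48.6 CPM) lay above all KO ethanol libraries (11.7 to 27.5 CPM). KO saline replicate 3, at 19.4 CPM, lay within the KO ethanol range, whose lowest value was an estimated count of 7. Over 23 alternatives the value was between -2.79 and -1.13 with the same sign in all 23, and the adjusted p, which ranged from 0.0939 to 0.570, was under 0.30 in 12. WT ethanol replicate 1, the library with the thalamus markers, had the highest Crim1 of all libraries at 83.9 CPM, and its part was measured by leaving it out (-1.72 ± 0.73, adjusted p = 0.461).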

How the results depend on the processing

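Without TMM factors the median log2 fold change of all genes moved to 0.494 in WT ethanol versus WT saline and to 0.487 in KO saline versus WT saline, and in the interaction to -0.523, against medians of 0.165, 0.327 and -0.276 over the 35 genes. In WT ethanol versus WT saline, where 7 genes were called, DESeq2 called 11, a minimum of 10 counts in every library called 3 of 24 tested, limma on either RPKM scale and the fit to the groups compared alone called 0, the fit without the 2 libraries named with L called 21, and that without WT ethanol replicate 1 as well called 13. Over all genes, limma called 184 higher and 137 lower of 19423 with a pseudocount of 1, and 101 and 42 with 0.1. The fit to the groups compared alone called 36 higher and 3 lower of 14006, and the count minimum 958 and 1134 of 7624. In KO saline versus WT saline, with 5 called, the 2 limma fits called 0, removal of length and GC trends left 2, the fit without the 2 libraries 15 and the fit without all 3 called 18. Over all genes, limma here called 131 higher and 101 lower with a pseudocount of 1, and 80 and 39 with 0.1. With length and GC trends removed, 435 of 14581 genes were called higher and 695 lower. In the interaction, with 1 called, DESeq2 called 4, no TMM 3, the count minimum 2, the highest-count transcript 2, limma, the first-letter covariate and the length and GC trends 0, and both fits without the libraries named with L 7. Over all genes, DESeq2 here called 1498 higher and 1189 lower of 19364, no TMM 372 and 1634 of 14739, and the count minimum 1052 and 819 of 7624. The first-letter covariate called 0 genes, the length and GC trends 3 and 21 of 14581, and limma 0 with a pseudocount of 1 and 1 and 2 with 0.1. Leaving out 1 library at a time gave 0 to 17, 0 to 12 and 0 to 7 called genes in these 3 contrasts and 0 in both others. The largest count in each came without WT saline replicate 1, where 48.7% and 50.4% of all genes were called in the first 2 contrasts. In the interaction, 2363 of 14996 genes were then called higher and 2701 lower. Eomes reversed to -0.76 without WT ethanol replicate 1 and to -1.02 without all 3 libraries, and Pcp4 in KO saline reversed to 0.16 in both limma fits. The difference in layer balance moved to 0.79 (KO ethanol versus KO saline) and -0.24 (KO saline versus WT saline) with medians, to -0.20 (KO saline versus WT saline) with the count minimum, and to 0.62 (KO ethanol versus WT ethanol) without the 3 libraries. Leaving out 1 library at a time, it ranged from 0.09 to 0.98 in WT ethanol versus WT saline, from 0.02 to 0.57 in KO saline versus WT saline, from -0.02 to 0.46 in KO ethanol versus KO saline and from -0.50 to 0.39 in KO ethanol versus WT ethanol. Beyond the settings named, the cause of these shifts was not tested. No paired analysis was possible because the groups share no replicate number in the labels. Depth limits the low genes most: KO ethanol replicate 1 had 719735 counts.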
